A study of Mus musculus with 26 samples.

Results

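The microRNA miR-128 was followed in mouse hippocampal CA1 through its 3 entries in the count table: mmu-miR-128-3p, the strand shared by both of its genes, and mmu-miR-128-1-5p and mmu-miR-128-2-5p, the opposite strands that come from the hairpins Mir128-1 and Mir128-2. The members were taken by name, 3 of 1915 entries, and all 3 passed the filter on low counts that left 605 entries for testing. Small RNA was sequenced from dissected CA1 of 26 libraries in 3 groups. There were 10 libraries of CamkdeltaC transgenic mice given Vorinostat in their drinking water, 7 of CamkdeltaC transgenic mice given vehicle, and 9 of wild type littermates given vehicle. Vorinostat is an inhibitor of histone deacetylases. Treatment began at an age of 2 months and lasted 4 weeks, which brought the mice to 3 months, and chance decided which transgenic mice drank Vorinostat. The study's title links heart failure with impaired memory. The labels give neither the promoter of the transgene nor the sex of each animal, they say that males and females were used, and no wild type mice with Vorinostat were analysed here. Whether every library stands for its own animal is not stated either, and the p-values therefore reflect the spread among libraries.

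A microRNA is cut from a hairpin as a short duplex, and as a rule one strand is kept by an Argonaute protein and guides it to messenger RNAs that pair with the strand's seed, while the opposite strand is degraded. miR-128 is strongly enriched in neurons of the mammalian brain. In mice, loss of Mir128-2 in forebrain neurons leads to seizures. Because the 3p strand has the same sequence from both genes, only the 5p strands show which hairpin was processed.

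The mature sequences and hairpins are given because the whole account rests on which strand belongs to which gene. They come from RefSeq (GRCm38.p6) and all 3 members matched by name. In the mature strands the capitals mark the seed, bases 2 to 8 from the 5′ end.
miR-128-3p: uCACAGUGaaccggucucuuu
miR-128-1-5p: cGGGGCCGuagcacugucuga
miR-128-2-5p: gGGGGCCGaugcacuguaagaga
In the hairpins below, the capitals mark the 5p strand and then the 3p strand.
Mir128-1: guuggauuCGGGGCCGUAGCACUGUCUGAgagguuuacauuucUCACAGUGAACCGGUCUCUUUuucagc
Mir128-2: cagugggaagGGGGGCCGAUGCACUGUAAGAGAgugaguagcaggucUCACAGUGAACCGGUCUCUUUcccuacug

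Mir128-1 lies at chr1:128202361-128202430 on the plus strand, inside R3hdm1, and Mir128-2 at chr9:112118636-112118711 on the minus strand, inside Arpp21. In GENCODE's annotation of GRCm38, 2 of the 16 R3hdm1 transcripts and 9 of the 31 Arpp21 transcripts span the hairpin, in each case on the hairpin's strand, and 0 of them have an exon over it, so both hairpins are intronic. R3hdm1 encodes a protein with an R3H nucleic-acid-binding domain. Arpp21 encodes a cAMP-regulated phosphoprotein of neurons. Its hairpin lies in intron 19 of 20 in 1 of the 2 principal transcripts that span it. The 5p strands differ in length, 21 bases from Mir128-1 and 23 from Mir128-2. Over the first 21 positions 16 are identical, seed included, and the 5 substitutions of miR-128-2-5p against miR-128-1-5p, counted from 1 at the 5′ end, are C1G, U9A, A10U, C18A and U19A. Both 5p strands hold the letters CACUGU from position 12, the reverse complement of the ACAGUG inside the 3p seed. In the RNAfold minimum free energy structures all 7 seed bases of the 3p strand pair with the 5p strand in both hairpins. Of the 21 bases of the 3p strand, 15 are paired in Mir128-1 and 18 in Mir128-2, and the predicted free energies are -29.3 and -37.3 kcal/mol.

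The 3p strand was the most abundant microRNA in 25 of the 26 libraries, while each 5p strand was rare. All libraries together held 68129239 reads of miR-128-3p, against 5732 of miR-128-1-5p and 7821 of miR-128-2-5p. By mean share, miR-128-1-5p stood at place 290 and miR-128-2-5p at place 248 of the 1389 entries with reads. Per library the counts were 70088 to 4887397 for miR-128-3p, 20 to 528 for miR-128-1-5p and 73 to 551 for miR-128-2-5p. The next most abundant microRNAs by mean share were miR-9-5p at 12.7%, a microRNA of neural cells, miR-99a-5p at 7.15% and miR-26a-5p at 6.15%, and each was below miR-128-3p in 26 of 26 libraries. The others of the 10 most abundant were miR-127-3p, let-7f-5p, miR-218-5p, let-7c-5p, miR-7a-5p and miR-148a-3p. The share of miR-128-3p varied by 15.4% of its mean over all libraries (coefficient of variation), the share of miR-9-5p by 21.3% and that of let-7c-5p by 13.02%. These are shares of reads after adapter ligation, so they set neither molecules per cell nor, in whole tissue, the number of cells apart from the RNA in each.

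The libraries held 3.89 to 15.7 M counts (M, 1000000) in the transgenic Vorinostat group, 6.01 to 24.8 M in the transgenic vehicle group and 0.585 to 17.6 M in the wild type group, and column names place each in lane L001 or L002. The smallest library, wild type replicate 1, stood apart, as did transgenic Vorinostat replicate 8 with 3.89 M, and results that rest on them are given with and without them. Markers of neurons (miR-124-3p, miR-9-5p, miR-132-3p and miR-138-5p) summed to 102905 to 176627 CPM (counts per 1000000) in transgenic Vorinostat, 133160 to 150826 in transgenic vehicle and 50818 to 155410 in wild type libraries. These sums were mostly miR-9-5p, which alone averaged 129894, 133084 and 116477 CPM in the same order of groups. Markers of microglia and leukocytes summed to at most 40.4, 40.5 and 33.3 CPM in the same order of groups. Of the heart muscle markers, miR-208a-3p had 2 reads in all libraries together, while miR-1a-3p had 139036 and miR-133a-3p 3648.

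Vorinostat-treated and vehicle-treated transgenic mice were compared to ask whether the drug altered miR-128. The level of miR-128-3p was higher on average with Vorinostat, but the difference did not pass the test across all microRNAs. In transgenic Vorinostat libraries miR-128-3p took 20.4%, 24.3% and 28.9% of counts (lowest, median and highest, n = 10), and in transgenic vehicle libraries 18.4%, 22.3% and 24.7% (n = 7). The groups overlapped, with 5 of the 10 Vorinostat libraries above every vehicle library and the other 5 within the vehicle range. On the CPM scale, with library sizes scaled by TMM, miR-128-3p averaged 260192 ± 52097 CPM in transgenic Vorinostat libraries (SD, n = 10) and 210497 ± 34050 CPM in transgenic vehicle libraries (SD, n = 7). The log2 difference was 0.31 (SE 0.14, 95% interval 0.02 to 0.60; edgeR quasi-likelihood test, p = 0.0394, adjusted p = 0.836 over 605 microRNAs), and 0.25 without both libraries that stood apart.

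**Figure D1:**
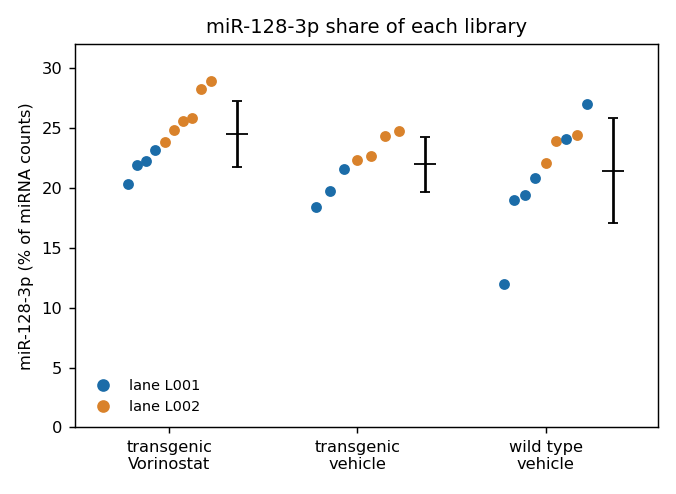
Share of miR-128-3p in all microRNA counts of a library (y axis, percent) for the transgenic Vorinostat, transgenic vehicle and wild type vehicle groups (x axis), with points coloured by lane and the bar showing mean and SD. The groups overlap, lane L002 libraries lie higher within the transgenic groups, and wild type replicate 1 is the lowest point at 11.98%.

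In the edgeR test 0 of 605 microRNAs (0.0%) passed an adjusted p of 0.05 between these groups. An unadjusted p under 0.05 was reached by 21 (3.47%), miR-128-3p among them. DESeq2 and limma voom also called 0. Scaling by library totals alone gave miR-128-3p a log2 difference of 0.16, with the median of all tested microRNAs at -0.14, and upper quartile scaling gave 0.35, with that median at 0.03. Relative to the median of all tested microRNAs, miR-128-3p was 0.30 to 0.32 higher under the 4 scalings. A scaling factor moves all microRNAs of a library alike, so this gap could hardly differ between them.

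The 5p strands did not separate these groups. In transgenic Vorinostat libraries miR-128-1-5p had 12.4, 18.6 and 33.4 CPM (lowest, median and highest), and in transgenic vehicle libraries 10.02, 19.7 and 28.7 CPM. In transgenic Vorinostat libraries miR-128-2-5p had 17.6, 22.1 and 80.4 CPM, and in transgenic vehicle libraries 17.3, 24.9 and 34.6 CPM. For both strands the Vorinostat median lay below the vehicle median, and 1 and 3 Vorinostat libraries lay above every vehicle library. The log2 differences were 0.15 (SE 0.25) for miR-128-1-5p and 0.41 (SE 0.39) for miR-128-2-5p, with adjusted p-values of 0.870 and 0.836 in the edgeR test. Without both libraries that stood apart they were 0.04 and 0.14.

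Lane moved with miR-128-3p. With groups held fixed, libraries of lane L002 were 0.34 higher in log2 than those of L001 (SE 0.10), while the median of all tested microRNAs differed by -0.0032. Lane L002 held 6 of the 10 transgenic Vorinostat libraries and 4 of the 7 transgenic vehicle libraries. Within L001 miR-128-3p averaged 21.9 ± 1.17% of counts in transgenic Vorinostat libraries (SD, n = 4) and 19.9 ± 1.61% in transgenic vehicle libraries (SD, n = 3). Within L002 it averaged 26.2 ± 1.97% (SD, n = 6) and 23.5 ± 1.21% (SD, n = 4) in the same order. The edgeR log2 difference was 0.15 within L001 and 0.33 within L002, and 0.29 with lane as a covariate, none of them past the threshold.

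The replicate numbers in the labels were shared by 7 transgenic Vorinostat and 7 transgenic vehicle libraries. Same-numbered libraries deviated together, with correlations of 0.265 to 0.599. Lane was not removed from these correlations, and 6 of the 7 pairs were sequenced in a single lane. Pair 5, whose libraries were in different lanes, was at 0.599. The part of lane in the correlations was not tested. What a number marks is not stated, so the pairing is assumed, and it was read from these same counts. Within these pairs miR-128-3p was higher with Vorinostat in 7 of 7. The log2 CPM differences were 0.48 in pair 2, 0.15 in pair 3, 0.24 in pair 5, 0.42 in pair 6, 0.56 in pair 8, 0.44 in pair 9 and 0.29 in pair 10. The smallest difference came from pair 3 and the largest from pair 8, which holds the Vorinostat library that stood apart. Their mean was 0.37 ± 0.15 (SD, n = 7 pairs), with p = 0.0156 in an exact two-sided sign-flip test, the smallest value that 7 pairs can give. This test was chosen after seeing the data, and its p is unadjusted. How many of all microRNAs rose in 7 of 7 pairs was not counted. In the paired edgeR fit below, 25.9% of 567 microRNAs had an unadjusted p under 0.05. In the 6 pairs sequenced in a single lane the differences were 0.15 to 0.56, above 0 in 6 of 6.

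**Figure D2:**
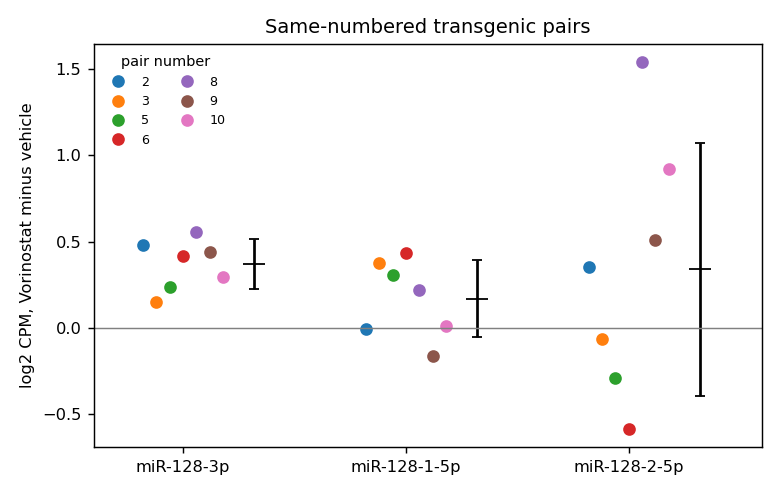
Difference in log2 CPM between the transgenic Vorinostat and transgenic vehicle library of each same-numbered pair (y axis) for miR-128-3p, miR-128-1-5p and miR-128-2-5p (x axis), with pairs as colours and the bar showing mean and SD over 7 pairs. All 7 points of miR-128-3p lie above 0, while 5 of miR-128-1-5p and 4 of miR-128-2-5p do.

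With the pair as a block in the edgeR fit, miR-128-3p had a log2 difference of 0.36 (SE 0.08, 95% interval 0.19 to 0.54) and fell just short of the threshold, with an adjusted p of 0.0532 over 567 microRNAs, the eighth smallest p. In that fit 5 of 567 microRNAs (0.882%) passed the threshold and 147 (25.9%) had an unadjusted p under 0.05. The 5 were miR-379-5p, miR-129-5p and miR-182-5p, which rose by 0.56, 0.68 and 1.34 on the log2 scale, and miR-339-5p and miR-29c-3p, which fell by 1.19 and 0.77. Leaving out 1 pair at a time gave miR-128-3p adjusted p-values of 0.0325 to 0.133 by edgeR and log2 differences of 0.32 to 0.40, and it passed only without pair 3. Without pair 8 the log2 difference was 0.34 and the adjusted p 0.0952. The number of microRNAs called was 29 without pair 3, 15 without pair 5 and 0 without any 1 of the other 5 pairs. The same 14 libraries without the block gave a log2 difference of 0.38 (edgeR, adjusted p = 0.642). The 5p strands did not move as evenly as miR-128-3p. Pairwise log2 CPM differences averaged 0.17 ± 0.22 for miR-128-1-5p (higher in 5 of 7 pairs; exact sign-flip p = 0.0938) and 0.34 ± 0.73 for miR-128-2-5p (higher in 4 of 7; exact sign-flip p = 0.312; SD, n = 7 pairs). Pair 8 was at 1.54 and pair 6 at -0.59 for miR-128-2-5p.

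Marker lists of other regions and cell types were read in the same comparison, and 0 of their members passed without the block. The 3 microRNAs of the sensory and thalamic list (miR-182-5p, miR-183-5p and miR-96-5p) had edgeR log2 differences above 0 in 3 of 3, with a median of 1.10, and miR-182-5p passed with the block. Their summed level ranged over 96.4 to 511 CPM in transgenic Vorinostat libraries and 60.0 to 140 CPM in transgenic vehicle libraries, and none of the 3 was at 0 on average in any group. The 2 hindbrain markers summed to 20.1 to 156 CPM with Vorinostat and 24.1 to 38.2 CPM with vehicle. The 3 oligodendrocyte markers had log2 differences below 0 in 3 of 3, with a median of -0.49, and summed to 797 to 1319 CPM with Vorinostat and 750.2 to 1652 CPM with vehicle. The most abundant of them, miR-219a-2-3p, was at -0.02 (SE 0.19). The others were miR-338-3p at -0.49 (SE 0.35) and miR-219a-5p at -0.57 (SE 0.38). The tested heart muscle markers, miR-1a-3p and miR-133a-3p, were at -0.06 and -0.71, and with miR-208a-3p summed to 280.5 to 651 CPM with Vorinostat and 369 to 704 CPM with vehicle. The endothelial markers miR-126a-3p and miR-126a-5p were at 0.21 and -0.32. Median log2 differences were 0.18 for erythrocyte, 0.08 for choroid plexus and -0.08 for microglia and leukocyte markers. Over all 605 microRNAs, 298 lay above 0. The part of these lists in the difference of miR-128-3p was not tested. Among 20 neuron-enriched microRNAs, all 20 tested, 0 passed without the block, 9 lay above 0 and the median was -0.02, beside -0.01 over all 605. With the block 2 of the 20, miR-379-5p and miR-129-5p, passed, beside 5 of 567 (0.882%) over all microRNAs. Leaving out any 1 of 5 of the 7 pairs left 0 called. The 4 most abundant of the 20 had log2 differences of -0.03 for miR-9-5p (SE 0.15), 0.49 for miR-127-3p (SE 0.38), 0.05 for miR-218-5p (SE 0.18) and 0.27 for miR-7a-5p (SE 0.21).

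Transgenic vehicle and wild type vehicle mice were compared to ask whether the transgene altered miR-128. No difference in miR-128-3p was detected. In transgenic vehicle libraries miR-128-3p took 18.4%, 22.3% and 24.7% of counts (lowest, median and highest, n = 7), and in wild type libraries 11.98%, 22.1% and 27.03% (n = 9). Every transgenic vehicle library lay within the wild type range, whose lower end is wild type replicate 1. Without that library the lowest wild type share was 19.0%, and transgenic vehicle replicate 2, at 18.4%, lay below it. On the CPM scale the averages were 210497 ± 34050 in transgenic vehicle libraries (SD, n = 7) and 209560 ± 40298 in wild type libraries (SD, n = 9), a log2 difference of 0.01 (SE 0.14, 95% interval -0.29 to 0.30; edgeR, adjusted p = 0.994).

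In this comparison edgeR called 0 of 605 microRNAs (0.0%), with 13 (2.15%) at an unadjusted p under 0.05, and DESeq2 and limma voom called 0. In transgenic vehicle libraries miR-128-1-5p had 10.02, 19.7 and 28.7 CPM (lowest, median and highest), and in wild type libraries 9.88, 16.6 and 41.6 CPM. The log2 difference of miR-128-1-5p was -0.09 (SE 0.26, 95% interval -0.63 to 0.45; edgeR, adjusted p = 0.980). For miR-128-2-5p the transgenic vehicle libraries had 17.3, 24.9 and 34.6 CPM, and the wild type libraries 14.8, 31.3 and 151.9 CPM. All transgenic vehicle libraries lay inside the wild type range, whose upper end is wild type replicate 1. The log2 difference of miR-128-2-5p was -0.61 (SE 0.41; edgeR, adjusted p = 0.980), and -0.13 without wild type replicate 1. Among the 20 neuron-enriched microRNAs 0 passed, 12 lay above 0 and the median was 0.08, beside 0.03 over all 605.

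**Figure D3:**
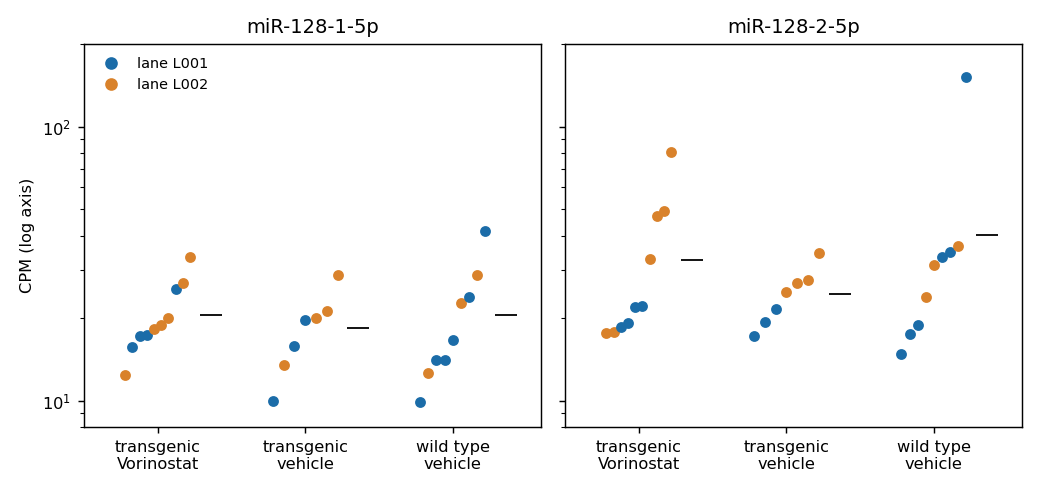
CPM (y axis, log axis) of miR-128-1-5p (left panel) and miR-128-2-5p (right panel) in transgenic Vorinostat, transgenic vehicle and wild type vehicle libraries (x axis), with points coloured by lane and the bar showing the arithmetic mean. All groups overlap, and the highest points of miR-128-2-5p are wild type replicate 1 at 152 CPM and transgenic Vorinostat replicate 8 at 80.4 CPM.

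Transgenic Vorinostat and wild type vehicle mice differ in genotype and treatment together, and this comparison shares its libraries with the comparisons above. On the CPM scale miR-128-3p averaged 260192 ± 52097 in transgenic Vorinostat libraries (SD, n = 10) and 209560 ± 40298 in wild type libraries (SD, n = 9), and 5 of the 10 Vorinostat libraries lay above every wild type library. By share of counts, 2 of the 10 did. The log2 difference was 0.31 (SE 0.13, 95% interval 0.04 to 0.58; edgeR, p = 0.0246, adjusted p = 0.9998). Here 0 of 605 microRNAs (0.0%) passed in edgeR, 19 (3.14%) had an unadjusted p under 0.05, and DESeq2 and limma voom called 0. The difference was 0.01 within L001 and 0.37 within L002, with 6 of the 9 wild type libraries in L001. Without both libraries that stood apart it was 0.19. For miR-128-1-5p the log2 difference was 0.06 (SE 0.24) and for miR-128-2-5p -0.21 (SE 0.37), both with an adjusted p of 0.9998 by edgeR. The 20 neuron-enriched microRNAs had a median of -0.01, with 9 above 0 and 0 called, beside 0.01 over all 605.

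The ratio of strands within a library needs no scaling between libraries. Per read of either 5p strand there were 5404 ± 1532 reads of miR-128-3p in transgenic Vorinostat libraries (SD, n = 10), 5009 ± 865 in transgenic vehicle libraries (SD, n = 7) and 4651 ± 1718 in wild type libraries (SD, n = 9). The lowest value was 754, in wild type replicate 1, and the highest 8143, in a transgenic Vorinostat library. The difference in the log2 ratio was 0.07 between transgenic Vorinostat and transgenic vehicle libraries, 0.27 between transgenic vehicle and wild type libraries and 0.35 between transgenic Vorinostat and wild type libraries. None of the 3 differences passed, with exact two-sided permutation p-values of 0.693, 0.663 and 0.386 and an adjusted p of 0.810 for each over 6 tests. Without both libraries that stood apart the differences were 0.17, -0.03 and 0.14 in the same order.

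Mir128-1 and Mir128-2 contributed comparable numbers of 5p reads, with more from Mir128-2. The share of 5p reads that came from Mir128-1 was 41.4 ± 9.85% in transgenic Vorinostat libraries (SD, n = 10), 42.4 ± 8.02% in transgenic vehicle libraries (SD, n = 7) and 38.4 ± 10.2% in wild type libraries (SD, n = 9). Single libraries spanned 21.5% in wild type replicate 1 (95% Wilson interval 14.4% to 30.9%, from 93 reads) to 57.9% in transgenic Vorinostat replicate 3 (53.7% to 62.1%), intervals that cover counting error only. The log2 ratio of miR-128-1-5p to miR-128-2-5p differed by -0.07 between transgenic Vorinostat and transgenic vehicle, 0.26 between transgenic vehicle and wild type and 0.20 between transgenic Vorinostat and wild type libraries. The exact two-sided permutation p-values were 0.810, 0.400 and 0.505, with an adjusted p of 0.810 for each. How well each 5p strand is retained and ligated is unknown, so this split is one of reads and not of transcription.

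Other microRNAs made from several numbered hairpins place these ratios. Of 28 such microRNAs in the table, 26 had at least 1000 reads of the shared strand. miR-128, at 5027 reads of the shared strand per opposite read over all libraries, was the fifth in that order. Next above it was miR-26a at 10006 and next below let-7f at 3021. At the top, miR-1a had 0 opposite reads, a ratio of at least 46345 taking 3 reads over all libraries as the floor, and miR-103 (37659) and miR-218 (26434) lay between it and miR-26a on 23 and 417 opposite reads. At the low end, miR-219a, made mainly in oligodendrocytes, had 0.0037 shared reads per opposite read. For the split between hairpins 17 microRNAs had at least 1000 opposite reads, a limit chosen after the values were seen. miR-128, with 57.7% of its opposite reads from Mir128-2, was the fourth most even of them. miR-125b at 54.2% was the most even, miR-7a at 55.5% came just before miR-128, let-7f at 61.6% just after it, and miR-181a at 99.97% was the least even.

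**Figure D4:**
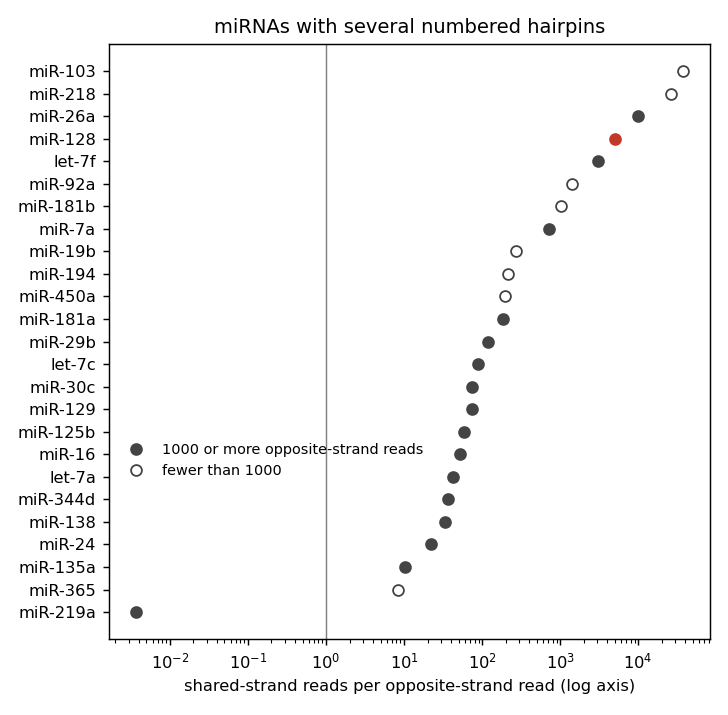
Reads of the shared strand per read of the opposite strands, summed over 26 libraries (x axis, log axis), for 25 microRNAs with several numbered hairpins (y axis), with open points for those with fewer than 1000 opposite reads and miR-128 in red. miR-128 lies at 5027, between miR-26a at 10006 and let-7f at 3021, and miR-1a is not drawn because it had 0 opposite reads.

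The members' levels were related to each other over the libraries to different degrees (log2 CPM, 3 relations, permutation p-values adjusted over them). miR-128-1-5p and miR-128-2-5p varied together with Pearson r = 0.64 (n = 26, adjusted p = 0.0012) and Spearman rho = 0.56 (adjusted p = 0.0063). Without the 2 libraries farthest from the median of miR-128-1-5p r was 0.60, and it was 0.61 within lane L001 and 0.62 within L002. Without both libraries that stood apart it was 0.36 in all, -0.07 within L001 and 0.47 within L002 (n = 12 each), so the relation within L001 rests on wild type replicate 1. For miR-128-3p and miR-128-2-5p r was 0.27 (adjusted p = 0.286) and rho 0.55 (adjusted p = 0.0063), with r = 0.76 without the 2 farthest libraries. Within lanes r was -0.19 in L001 and 0.62 in L002 with all libraries. Without both libraries that stood apart it was 0.77 in all, 0.90 in L001 and 0.53 in L002, so the negative value in L001 rests on wild type replicate 1. For miR-128-3p and miR-128-1-5p r was 0.10 (adjusted p = 0.624) and rho 0.23 (adjusted p = 0.257), with r = 0.39 without the 2 farthest libraries, -0.45 in L001 and 0.40 in L002. Without both libraries that stood apart it was 0.26 in all, -0.13 in L001 and 0.27 in L002. All points share a library's depth and scaling.

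Among 171 microRNAs with a mean of at least 100 CPM, the median correlation of log2 CPM with miR-128-3p over the 26 libraries was 0.18, and 0.10 without both libraries that stood apart. The closest in pattern was miR-543-3p, at r = 0.87 with all libraries and also 0.87 without both libraries that stood apart. With all libraries it was followed by miR-99a-5p at 0.80, the endothelial miR-126a-3p at 0.73, miR-1843b-5p at 0.68 and miR-192-5p at 0.67. With both libraries that stood apart left out, these 4 were at 0.79, 0.66, 0.72 and 0.64, at places 7, 28, 18 and 34 of 171, and miR-671-3p, at place 66 with all libraries, was second at 0.86. The least alike with all libraries were miR-148b-3p at -0.62, miR-410-3p at -0.37 and miR-484 at -0.36. Leaving both out, they were at -0.60, -0.46 and -0.67, and the lowest was miR-30e-5p at -0.81, so the places at both ends, apart from that of miR-543-3p, depend on those libraries. The neuron-enriched list was spread widely. Its 17 members in this comparison had r of -0.20 to 0.39 with a median of 0.12 over all libraries, and -0.75 to 0.79 with a median of -0.19 without both that stood apart. These are descriptions over libraries that share lanes and scaling.

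The 7 seed bases of miR-128-3p occur within bases 1 to 10 of 5 of the 1679 mature mouse microRNA names in the sequence table, and only miR-128-3p holds them at bases 2 to 8. In the miR-27 pair, shown because its strands hold the same 7 letters displaced by 1 base, they lie at bases 3 to 9 (capitals).
miR-27a-3p: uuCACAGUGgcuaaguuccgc
miR-27b-3p: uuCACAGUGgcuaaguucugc
The miR-27 strands were far less abundant than miR-128-3p. miR-27b-3p averaged 3157 ± 725 CPM in transgenic Vorinostat libraries (SD, n = 10), 3565 ± 380 CPM in transgenic vehicle libraries (SD, n = 7) and 2844 ± 900 CPM in wild type libraries (SD, n = 9). miR-27a-3p averaged 625 ± 134, 615 ± 41.9 and 538 ± 158 CPM in transgenic Vorinostat, transgenic vehicle and wild type libraries. Neither passed the edgeR test in any of the 3 comparisons. The remaining holders, miR-216a-3p and miR-497b, had 26 and 124 reads in all libraries together.

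In the normalized log2 values that the authors deposited for 674 microRNAs, miR-128-1-5p differed between groups. In that table miR-128-1-5p was at 5.18, 5.40 and 6.02 in transgenic Vorinostat libraries (lowest, median and highest), 4.48, 4.93 and 5.27 in transgenic vehicle libraries, and 5.19, 5.55 and 6.39 in wild type libraries. Transgenic vehicle libraries were the low group, with 6 of 7 below every wild type library and 7 of the 10 Vorinostat libraries above every one of them. With limma on these values miR-128-1-5p was 0.58 higher in transgenic Vorinostat than in transgenic vehicle libraries (SE 0.16, adjusted p = 0.0045) and 0.78 lower in transgenic vehicle than in wild type libraries (log2 difference -0.78, SE 0.16, adjusted p = 0.0018). These calls stand against a background in which 360 of 674 microRNAs (53.4%) passed in the Vorinostat comparison and 366 (54.3%) in the genotype comparison. Between transgenic Vorinostat and wild type libraries 6 of 674 (0.89%) passed, and miR-128-1-5p was at -0.20 (SE 0.15, adjusted p = 0.720 by limma).

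The counts did not show this pattern, as the log2 differences of miR-128-1-5p from counts were 0.15 for Vorinostat and -0.09 for genotype. The authors' value of miR-128-1-5p exceeded the log2 CPM from counts by 1.15 ± 0.30 in transgenic Vorinostat libraries (SD, n = 10), 0.74 ± 0.41 in transgenic vehicle libraries (SD, n = 7) and 1.43 ± 0.39 in wild type libraries (SD, n = 9). The median of this excess over 605 microRNAs was 0.55, 0.78 and 0.73 in the same order. Transgenic vehicle libraries thus lay near their median, and the other groups above theirs. For miR-128-3p the normalized table gave log2 differences of 0.01 for Vorinostat (SE 0.11, adjusted p = 0.944 by limma), where the counts gave 0.31, and 0.26 for genotype (SE 0.12, adjusted p = 0.0640). For miR-128-2-5p it gave 0.43 (SE 0.24, adjusted p = 0.134) and -0.39 (SE 0.25, adjusted p = 0.194) by limma. No source used here gives the steps behind the normalized values, and their part in these differences was not tested.

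**Figure D5:**
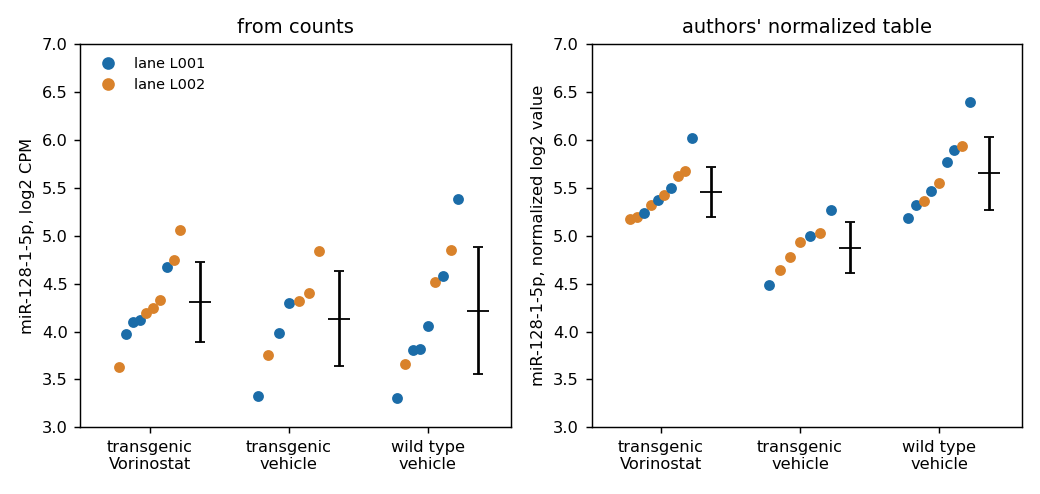
miR-128-1-5p in transgenic Vorinostat, transgenic vehicle and wild type vehicle libraries (x axis) as log2 CPM from the counts (left panel) and as the authors' normalized log2 value (right panel), with points coloured by lane and the bar showing mean and SD. The groups overlap in the counts, while 6 of 7 transgenic vehicle libraries lie below every wild type library in the normalized table.

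In the authors' deposited table of co-expression modules, miR-128-3p was placed in the turquoise module, with 404 of 674 microRNAs, and both 5p strands in the blue module, with 197. In the authors' deposited table the membership score of miR-128-3p in its own module was 0.37, below its score of 0.47 in the yellow module. There miR-128-1-5p scored 0.89 and miR-128-2-5p 0.78 in the blue module, while miR-128-3p scored -0.39 in it.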

How the data were processed

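Libraries from the TruSeq Small RNA kit were read as 50 bp single reads on a HiSeq2000, per the labels' protocols. FastQC 0.11.5 and mm10 are named in the submitters' processing notes. Aligner, annotation, counting and normalization steps were not given in the sources used here. Deposited by the authors were raw counts for 1915 entries, of which 526 had no read, normalized log2 values for 674 microRNAs, and a module table with membership scores and their p-values (the p-values were not used).

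From the counts, edgeR 4.0.16 in R 4.3.3 was used (TMM, filterByExpr with a minimum count of 10, quasi-likelihood F test, 1 model with 3 groups, Benjamini-Hochberg over 605 microRNAs, threshold 0.05). limma 3.58.1 was run on the deposited log2 values, and DESeq2 1.42.0 and limma voom were run as alternatives. CPM used library totals times TMM factors. Strand ratios had 0.5 added to each count and were tested by exact permutation. Correlations used 100000 permutations. Hairpins were folded with RNAfold 2.7.2. Script checks on simulated counts were run.

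Same-numbered libraries were taken as pairs between transgenic Vorinostat and transgenic vehicle, because all 7 correlations of their deviations exceeded 0.1. Lane was not removed from these deviations. The labels do not say what a number marks. The pairing was read from these same counts, and differently numbered libraries were not compared, so results over pairs rest on an assumed pairing. The rule did not hold between transgenic vehicle and wild type (4 of 6, r of -0.45 to 0.46). Nor did it hold between transgenic Vorinostat and wild type (6 of 9, r of -0.51 to 0.58). The microRNAs named are the members, the 10 most abundant, the 5 most and 3 least correlated with miR-128-3p, holders of its seed, neighbours and ends in the orders of microRNAs with several hairpins, the 4 most abundant of a neuron-enriched list, and list members past the threshold; others called in the paired fit, miR-103, miR-218, miR-671-3p and miR-30e-5p were named after their values were seen. The members and lists were chosen with earlier results of these data known.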

Additional observations from a re-analysis of the deposited data

Results flagged for a closer look

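3 values stood far from the rest of their group, in groups of 9 and 10 libraries. For a single measure with normally distributed values, chance alone picks out about 1 group in 20. The CPM of each member and both strand ratios were screened in every group, so more sets were searched than are named. Both values in wild type replicate 1 draw on the same reads of miR-128-2-5p. The level of miR-128-2-5p in wild type replicate 1 was 152 CPM, with the next highest wild type library at 36.7 CPM. The log2 ratio of miR-128-3p to the summed 5p strands in the same library was 9.55, with the next lowest at 11.8. That library was the smallest, at 0.585 M counts and 73 reads of miR-128-2-5p, and miR-127-3p was its most abundant microRNA at 18.3% of counts, with miR-128-3p at 11.98% (95% Wilson interval 11.9% to 12.1%, counting error only). The level of miR-128-2-5p in transgenic Vorinostat replicate 8 was 80.4 CPM, with the next highest library at 49.2 CPM. That library was the smallest of its group, at 3.89 M counts and 253 reads of miR-128-2-5p.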

How the results depend on the processing

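From counts no member passed the threshold without the pairs, so most changes of direction concern values close to 0. For genotype, miR-128-3p (0.01) was -0.10 with upper quartile factors, -0.012 with totals and TMM without miR-128-3p, -0.037 with a mean of at least 10 CPM, -0.00019 with limma voom, -0.084 with lane as covariate, -0.15 within L001 and -0.067 without both libraries that stood apart. miR-128-1-5p (-0.09) was 0.011 with voom and 0.035 without both. Between transgenic Vorinostat and wild type, miR-128-1-5p (0.06) was -0.0052 with RLE factors, -0.032 with upper quartile factors, -0.028 with library totals and -0.017 within L002, and miR-128-2-5p (-0.21) was 0.013 with voom, 0.39 within L002 and 0.015 without both.

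Of the strand ratios, that of 3p to 5p for genotype (0.27) was -0.031 without both. That of 1-5p to 2-5p was 0.016 without both and 0.27 within L001 for Vorinostat (-0.07), and -0.20 within L002 for Vorinostat against wild type (0.20).

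With the replicate block on same-numbered libraries the Vorinostat comparison called 5 microRNAs instead of 0, as given above. The block on all libraries called 0. The sign-flip test over 7 pairs, chosen after seeing the data, gave miR-128-3p 0.37 with p = 0.0156 (exact, unadjusted). For genotype the correlation rule for pairs did not hold. There miR-128-3p was -0.11 with the block on all libraries and -0.12 on same-numbered libraries. In the same order miR-128-1-5p was 0.022 and 0.15, and the 3p to 5p ratio was -0.13 over pairs. The block changed no other call. With 1 pair left out, an alternative chosen after seeing the data, the block called 0 to 29 (15 without pair 5), and miR-128-3p passed at 0.40 without pair 3.

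On the authors' normalized values the genotype comparison called 366, the Vorinostat comparison 360 and that against wild type 6. Within L002, also chosen after seeing the data, they called 150, 335 and 3, while within L001 none of them called any microRNA. miR-128-1-5p passed for genotype (-0.78, and -0.77 within L002) and Vorinostat (0.58, and 0.56 within L002), but for neither within L001. miR-128-3p was -0.050 for Vorinostat within L002. Against wild type miR-128-1-5p was -0.20, -0.14 within L001 and -0.21 within L002, and miR-128-2-5p 0.042 and 0.074 within L002. The cause was not tested.

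Leaving out 1 library at a time called 0 microRNAs in each comparison. For genotype the log2 differences ranged over -0.070 to 0.058 for miR-128-3p, -0.20 to 0.053 for miR-128-1-5p and -0.65 to -0.13 for miR-128-2-5p, for Vorinostat over 0.22 to 0.36, 0.021 to 0.23 and 0.16 to 0.48, and for Vorinostat against wild type over 0.21 to 0.36, -0.040 to 0.16 and -0.44 to 0.25. The 3p to 5p ratio ranged over -0.031 to 0.35, 0.00099 to 0.17 and 0.042 to 0.45, and that of 1-5p to 2-5p over 0.12 to 0.37, -0.18 to 0.028 and 0.055 to 0.29. With 20 to 528 reads of miR-128-1-5p a library, depth limits the 5p strands but not miR-128-3p.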
